A study of Homo sapiens with 4 samples.

Results

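The genes described here are the TGF-beta and BMP ligands and receptors of Meg-01, an established human megakaryoblastic leukemia cell line, in cells with and without an shRNA against the transcription factor GATA1. They comprise the ligands TGFB1, TGFB2 and TGFB3, the type I receptors TGFBR1, BMPR1A and ACVR1, the type II receptors TGFBR2 and BMPR2, and the co-receptors TGFBR3 and ENG. Every non-control probe that the array annotation assigned to one of these 10 genes was taken, which gave 16 of the 41000 probes on the array, and the probes of a gene were kept apart. Of the 16 probes, 15 carried a RefSeq accession, and all 15 matched the same symbol in a current RefSeq table.

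The populations compared were all Meg-01 cells infected with lentivirus, and the clones were selected with puromycin. GATA1 5-13 and GATA1 4-14 each stably carry a GATA1 shRNA and each grew from a single soft agar colony, so that each is 1 clone. GATA1 Neg, the control, was not cloned: it is a mixed population that received a non-targeting shRNA. RNA of 1 clone and RNA of GATA1 Neg were hybridized together on a 2-colour Agilent array, with 2 arrays per clone that carried the dyes in opposite orientation, and all 4 arrays lay on 1 slide. On replicate 1 of a clone the knockdown RNA was in the red channel and on replicate 2 in the green channel. The labels name Meg-01 as the cell line, except for their RNA extraction text, which names CMK, another megakaryoblastic line.

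TGF-beta and BMP ligands are secreted dimers that bring together type I and type II receptors, which are serine/threonine kinases of the cell surface. The type II receptor phosphorylates the type I receptor, which then phosphorylates SMAD proteins that enter the nucleus and regulate transcription. TGFBR1 and TGFBR2 are the receptors of TGF-beta itself, BMPR1A, ACVR1 and BMPR2 serve BMP and activin-type ligands, and betaglycan (TGFBR3) and endoglin (ENG) present ligand without kinase activity. TGF-beta is stored in platelet granules and is known as an inhibitor of the growth of megakaryocytes and their progenitors.

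A log2 ratio of knockdown clone over GATA1 Neg was computed for each probe on each array, from intensities corrected for background and normalized within the array. Both arrays of a clone went into 1 mean, which counts as 1 replicate (n = 2 clones), and limma tested the mean of the clones against 0 over 40974 probes. The p-values and intervals therefore take their error from the spread between these clones. In limma this spread is moderated toward that of all probes tested (prior degrees of freedom 2.06 of 3.06 in total). The spread of GATA1 Neg, whose RNA was present on each array, is not measured. Whether the arrays carried separate RNA extracts is not given in the sources used here. GATA1 itself, the gene targeted by the shRNA, gave log2 ratios of -0.21 and -0.34 in GATA1 5-13 and of -0.43 and -0.58 in GATA1 4-14. All 4 arrays lay below 0, and averaged over clones the ratio was -0.39 ± 0.16 (SD, n = 2 clones; adjusted p = 0.61, limma, Benjamini-Hochberg). Apart from the arrays, the study reports lower GATA1 transcript by real-time RT-PCR and lower GATA1 protein by Western blotting in both clones.

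A probe was read as above background in an RNA on an array where Feature Extraction marked at least 0.5 of its spots as well above background. By this measure 12 of the 16 probes were above background in both RNAs on all 4 arrays, and they covered TGFB1, TGFB3, TGFBR1, BMPR1A, ACVR1, TGFBR2, BMPR2 and ENG. The other 4 were both TGFB2 probes, the TGFBR3 probe and the second TGFB3 probe. None of the 16 passed an adjusted p of 0.05 in limma, the same as the 0% over all 40974 probes. At an unadjusted p of 0.005 the count was also 0, against 0.901% of all probes. At an unadjusted p of 0.05 the count was 2, against a background of 7.42%. TGFB3 was the 1 probe higher (background 3.38%) and BMPR2 the 1 lower (background 4.04%). The adjusted p-values of the 16 probes lay between 0.58 and 0.95.

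Among the 12 probes above background, 3 had a higher signal than GATA1 Neg on all 4 arrays (1 TGFB3 and 2 BMPR1A probes), where the background over 23804 probes above background was 15.9%. BMPR2 was the 1 probe with a lower signal on all 4 arrays, where the background was 16.8%. For 3 probes (TGFBR1, ACVR1 and 1 of TGFBR2) both arrays of GATA1 5-13 lay above 0 and both arrays of GATA1 4-14 below it. Over all probes above background, 18.6% went in opposite directions in the clones on all arrays. In GATA1 5-13, 8 of the 12 probes were higher on both arrays (background 37%) and 1 was lower on both (background 38.9%). In GATA1 4-14, 6 of the 12 were lower on both arrays (background 30.9%) and 3 were higher on both (background 30.2%). Across the 12 probes the median was 0.07 on the log2 scale for GATA1 5-13 and -0.14 for GATA1 4-14, beside medians of -0.01 and -0.0004 over all probes above background. The probes of one gene share a transcript and both clones share the control RNA, so these counts are descriptions of the arrays.

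**Figure D1:**
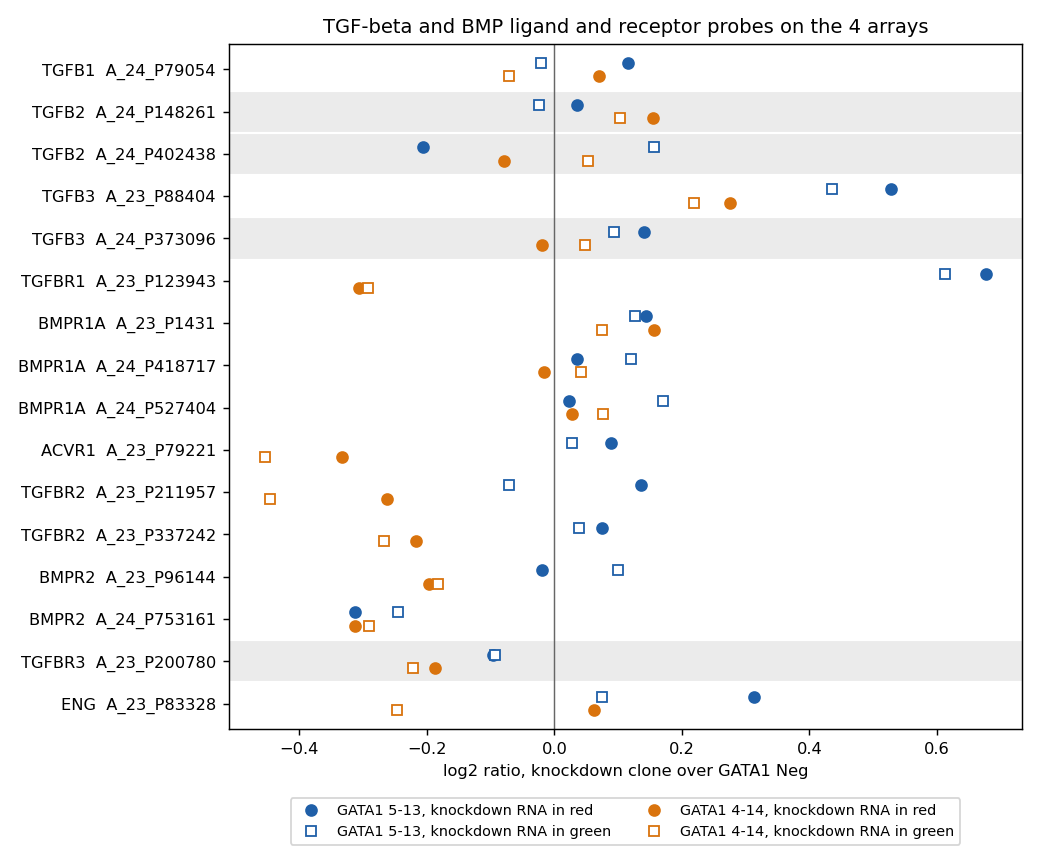
Log2 ratio of knockdown clone over GATA1 Neg (horizontal axis) for each of the 16 ligand and receptor probes (rows) on each of the 4 arrays. Blue marks GATA1 5-13 and orange GATA1 4-14, filled circles arrays with the knockdown RNA in red and open squares those with it in green, and grey bands mark the 4 probes that were not above background in both RNAs on all arrays. TGFBR1 is split by clone, near 0.65 in GATA1 5-13 and near -0.30 in GATA1 4-14, whereas the 4 values of BMPR2 A_24_P753161 lie between -0.31 and -0.24.

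TGFB1, the ligand that platelets store, was measured by probe A_24_P79054, which the array annotation places on chromosome 19 from 46529982 to 46539642 of hg18. Its genomic span of 9661 bases means that the probe crosses introns of the gene. Its log2 ratios were 0.12 and -0.02 in GATA1 5-13 and 0.07 and -0.07 in GATA1 4-14. The array with the knockdown RNA in red was the higher one in each clone, and averaging the orientations left GATA1 5-13 at 103% and GATA1 4-14 at 99.9% of GATA1 Neg. The mean log2 ratio was 0.02 ± 0.03 (SD, n = 2 clones), with a 95% interval of -0.15 to 0.20 and an adjusted p of 0.94 from limma.

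TGFB1 is the member with the most precise measurement on a single array, since its probe is printed at 10 spots. The SD over the 10 spots was 0.024 and 0.026 on the arrays of GATA1 5-13 and 0.040 and 0.029 on those of GATA1 4-14. The gap between the red and green orientation was 0.14 in both clones, several times the spot SD. ENG showed the same order with gaps of 0.24 and 0.31, TGFBR2 A_23_P211957 with 0.21 and 0.18, and GATA1 itself with 0.13 and 0.15. In BMPR1A A_24_P527404 the order was the other way, with gaps of -0.15 and -0.05. For TGFB1 and ENG these gaps were about as large as those between the clones (0.05 and 0.29) or larger, and values from 1 array are read here only together with the dye-swapped one.

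**Figure D2:**
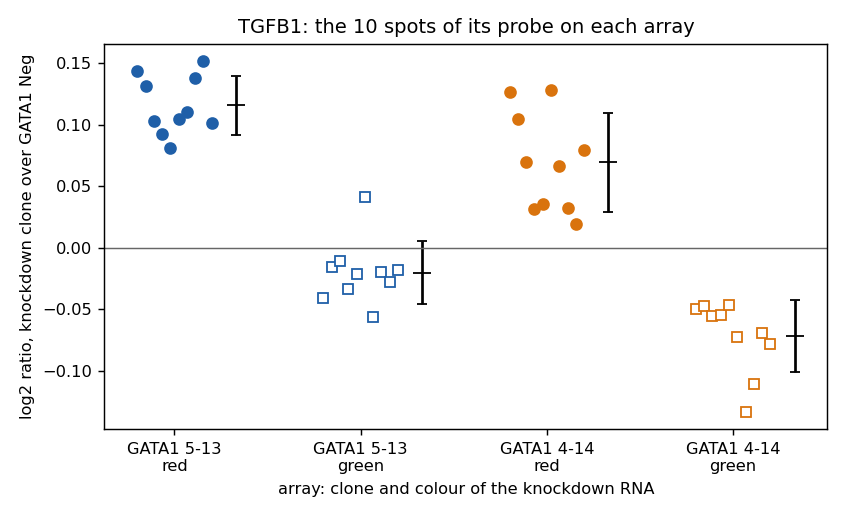
Log2 ratio of knockdown clone over GATA1 Neg (vertical axis) at each of the 10 spots of the TGFB1 probe on each of the 4 arrays, labelled by clone and colour of the knockdown RNA. Black bars give the mean and SD over the spots. In each clone the array with the knockdown RNA in red lies above the one with it in green, by 0.14 on the log2 scale.

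TGFB2 was not above background in any RNA on any array at either of its probes, A_24_P148261 and A_24_P402438 (chromosome 1, with starts 2465 bases apart). Its intensity minus local background ranged from 12.0 to 36.8 in GATA1 Neg and from 13.8 to 68.6 in the clones, and no fold is given. A level of TGFB2 was thus not detectable in these cells with these probes.

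TGFB3 had the largest mean log2 ratio of the 16 probes. At probe A_23_P88404 (chromosome 14 from 75494657 to 75494716) its log2 ratios were 0.53 and 0.44 in GATA1 5-13 and 0.28 and 0.22 in GATA1 4-14. All 4 arrays lay above 0, and both arrays of GATA1 5-13 lay above both of GATA1 4-14. The clones stood at 140% and 119% of the level in GATA1 Neg. A larger gap in this direction was found for 14.9% of the probes above background. The mean log2 ratio was 0.37 ± 0.17 (SD, n = 2 clones), with a 95% interval of 0.10 to 0.63, an unadjusted p of 0.023 and an adjusted p of 0.62 from limma. Of all probes above background, 3.71% had a larger log2 ratio in GATA1 5-13 and 5.33% in GATA1 4-14. The normalized log2 intensity was 7.31 to 7.38 in GATA1 Neg, 7.84 and 7.81 in GATA1 5-13 and 7.61 and 7.57 in GATA1 4-14. The probe was dim, with 68.7 to 146 intensity units over local background in GATA1 Neg. An offset of 50 added during the background correction shrinks the ratio of so dim a probe, and the mean log2 ratio was 0.64 with Feature Extraction's own log ratios and 0.15 with no background correction.

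The second TGFB3 probe, A_24_P373096, lies 4919 bases away by its start. It was above background in each RNA on only 1 of 4 arrays, and its log2 ratios were 0.14, 0.09, -0.02 and 0.05. The higher signal at the first probe was therefore not measured a second time. The study lists TGFB3 and BMPR2 as genes changed on these same arrays and also bound in its separate GATA1 ChIP-on-Chip experiment in Meg-01. The direction found here is therefore not independent evidence, and the binding data were not analysed here. The 250 bases before a start of TGFB3 in RefSeq (GRCh38.p14, chr14:75981996-75982245, minus strand) are shown because TGFB3 had the highest mean ratio. Capitals mark the word TATAAA, searched on both strands, whose first base is at -30 from the start. It is found in 11.5% of the 35116 windows of 300 bases around RefSeq starts.
TGFB3: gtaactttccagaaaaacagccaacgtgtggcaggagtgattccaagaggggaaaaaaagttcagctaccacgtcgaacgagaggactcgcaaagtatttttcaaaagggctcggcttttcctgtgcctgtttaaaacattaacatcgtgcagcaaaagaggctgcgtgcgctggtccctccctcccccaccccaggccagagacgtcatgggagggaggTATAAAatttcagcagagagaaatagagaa

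TGFBR1, the type I receptor of TGF-beta, differed most between the clones. At probe A_23_P123943 (chromosome 9 from 100952018 to 100952077) its log2 ratios were 0.68 and 0.61 in GATA1 5-13 and -0.31 and -0.29 in GATA1 4-14. The dye-swapped arrays of a clone lay within 0.06 and 0.01 of each other, far closer than the clones. The level was 156% of GATA1 Neg in GATA1 5-13 and 81.3% in GATA1 4-14, a gap of 0.94 on the log2 scale. A larger gap in this direction was found for 0.718% of the probes above background. The normalized log2 intensity of GATA1 Neg was steady at 9.61 to 9.63 on the 4 arrays, whereas it was 10.31 and 10.23 in GATA1 5-13 and 9.30 and 9.32 in GATA1 4-14. With the clones apart, the mean log2 ratio was 0.17 ± 0.67 (SD, n = 2 clones) and the adjusted p 0.91 from limma, and the sign of the mean is that of GATA1 5-13 alone. A clone by itself is 1 replicate, so the gap between the clones has no test.

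Of the 8 RefSeq start windows of TGFBR1, 2 hold a letter match to the preferred site of GATA factors. The words searched on both strands were AGATAA and the variant AGATAG, as well as the word TGATAA and the variant TGATAG. At least 1 of them is found in 25% of the 35116 windows. Among the members TGFB2, BMPR1A and ACVR1 also have such a word, and 5 of the 21 member windows hold one. The 250 bases before a TGFBR1 start that include one are shown (GRCh38.p14, chr9:99103397-99103646, plus strand) because GATA1 is the factor that was knocked down. Capitals mark AGATAA on the opposite strand, with its first base at -170. A word is a match of letters, and binding of GATA1 there was not measured on these arrays.
TGFBR1: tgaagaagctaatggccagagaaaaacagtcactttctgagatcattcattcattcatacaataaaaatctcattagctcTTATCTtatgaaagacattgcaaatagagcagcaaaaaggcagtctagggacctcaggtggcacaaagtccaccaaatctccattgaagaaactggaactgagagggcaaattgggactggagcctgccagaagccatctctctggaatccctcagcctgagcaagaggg

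BMPR1A, a type I receptor for BMPs, had small ratios at all 3 of its probes on chromosome 10. Probe A_23_P1431 gave 0.14 and 0.13 in GATA1 5-13 and 0.16 and 0.07 in GATA1 4-14. Probe A_24_P418717 gave 0.04, 0.12, -0.02 and 0.04, and probe A_24_P527404 gave 0.02, 0.17, 0.03 and 0.08 in the same order. Only 1 of these 12 values was below 0. The mean log2 ratios were 0.12, 0.05 and 0.07 with adjusted p-values of 0.70, 0.87 and 0.78 from limma. The upper ends of their 95% intervals were 0.29, 0.22 and 0.25. The start window of BMPR1A holds 2 of the GATA words. Its 250 bases before the start (GRCh38.p14, chr10:86755513-86755762, plus strand) are shown for comparison with those of TGFBR1, with AGATAG on the opposite strand at -210 in capitals.
BMPR1A: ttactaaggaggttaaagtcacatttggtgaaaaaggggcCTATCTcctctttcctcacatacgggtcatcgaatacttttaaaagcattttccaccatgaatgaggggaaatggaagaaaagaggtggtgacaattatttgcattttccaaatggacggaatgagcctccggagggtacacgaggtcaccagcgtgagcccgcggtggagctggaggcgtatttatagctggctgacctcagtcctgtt

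ACVR1, a type I receptor that binds BMP and activin-type ligands, was near GATA1 Neg in one clone and lower in the other. Probe A_23_P79221 (chromosome 2 from 158301680 to 158301739) gave log2 ratios of 0.09 and 0.03 in GATA1 5-13 and of -0.33 and -0.45 in GATA1 4-14. These are 104% and 76.1% of GATA1 Neg, and 4.5% of the probes above background had a larger gap between the clones in this direction. Of the probes above background, 2.68% had a lower log2 ratio in GATA1 4-14. The mean log2 ratio was -0.17 ± 0.32 (SD, n = 2 clones), with an adjusted p of 0.80 from limma.

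TGFBR2, the type II receptor that binds TGF-beta, followed ACVR1 at both of its probes on chromosome 3. Probe A_23_P211957 gave log2 ratios of 0.14 and -0.07 in GATA1 5-13 and of -0.26 and -0.45 in GATA1 4-14. Probe A_23_P337242, which spans an intron, gave 0.07 and 0.04 in GATA1 5-13 and -0.22 and -0.27 in GATA1 4-14. In GATA1 5-13 the probes were thus at 102% and 104% of GATA1 Neg, and in GATA1 4-14 at 78.2% and 84.5%. A larger gap between the clones in this direction was found for 6.42% of the probes above background at A_23_P211957 and for 10.4% at A_23_P337242. The second probe was dim, at 74.4 to 159 intensity units over local background in GATA1 Neg against 1694 to 3745 for the first. Its mean log2 ratio of -0.09 was -0.22 with Feature Extraction's log ratios and -0.03 with no background correction. Adjusted p-values from limma on both clones were 0.78 and 0.85.

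**Figure D3:**
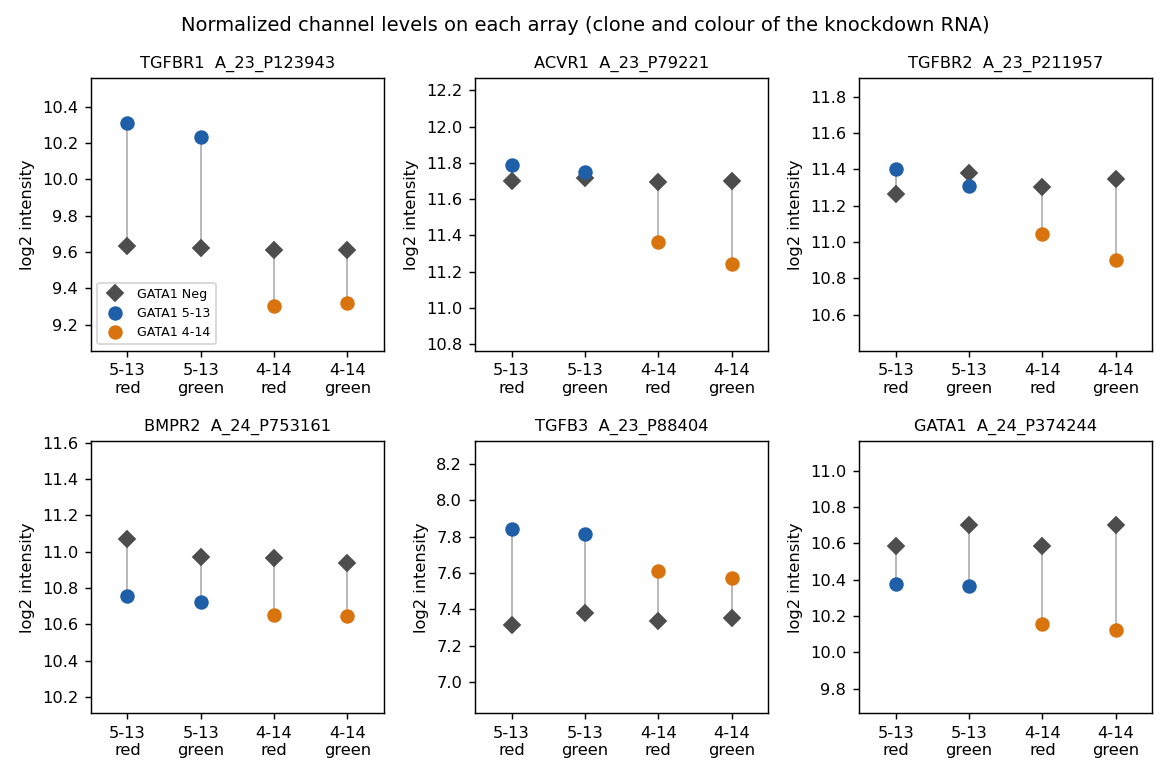
Normalized log2 intensity (vertical axis, arbitrary fluorescence units) of GATA1 Neg (grey diamonds) and of the knockdown clone (blue, GATA1 5-13, and orange, GATA1 4-14) on each of the 4 arrays, labelled by clone and colour of the knockdown RNA, for 5 receptor and ligand probes and GATA1. All panels span the same range of 1.5 log2 units. TGFBR1 lies above GATA1 Neg in GATA1 5-13 and below it in GATA1 4-14, ACVR1 and TGFBR2 are clearly below it in GATA1 4-14, and BMPR2 is below it on all 4 arrays.

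BMPR2, the type II receptor of BMPs, gave the lowest mean log2 ratio of the 16 probes. Probe A_24_P753161 (chromosome 2 from 203139767 to 203139826) had log2 ratios of -0.31 and -0.24 in GATA1 5-13 and of -0.31 and -0.29 in GATA1 4-14. The 4 values lay within 0.07 of each other, at 82.4% and 81.1% of GATA1 Neg in the clones. Normalized log2 intensities were 10.94 to 11.07 in GATA1 Neg and 10.65 to 10.76 in the clones. The mean log2 ratio was -0.29 ± 0.02 (SD, n = 2 clones), with a 95% interval of -0.46 to -0.12, an unadjusted p of 0.012 and an adjusted p of 0.58 from limma. Of the probes above background, 14.1% were lower in GATA1 5-13 and 4.45% in GATA1 4-14.

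The other BMPR2 probe, A_23_P96144, did not repeat this in both clones. Its start lies 6890 bases before that of the first probe, and its log2 ratios were -0.02 and 0.10 in GATA1 5-13 and -0.20 and -0.18 in GATA1 4-14. In GATA1 4-14 both probes lay below 0, at 87.6% and 81.1% of GATA1 Neg, whereas in GATA1 5-13 they stood at 103% and 82.4%. Which part of the BMPR2 transcripts each probe reads was not analysed here. The 250 bases before the RefSeq start of BMPR2 (GRCh38.p14, chr2:202376077-202376326, plus strand) are shown because this probe had the lowest mean of the members. Capitals mark the GC box GGGCGG on either strand, with first bases at -206, -196 and -131. GGGCGG is found in 45% of the 35116 windows, and none of the GATA words is in the window of BMPR2.
BMPR2: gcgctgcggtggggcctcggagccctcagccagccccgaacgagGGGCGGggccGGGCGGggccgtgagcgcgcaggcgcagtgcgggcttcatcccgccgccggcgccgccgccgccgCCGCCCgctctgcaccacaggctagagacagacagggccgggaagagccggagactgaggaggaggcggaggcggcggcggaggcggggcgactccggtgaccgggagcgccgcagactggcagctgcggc

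The co-receptors gave little signal or little change. TGFBR3, which presents TGF-beta to its receptors, was not above background in any RNA on any array, with 33.4 to 61.4 intensity units over local background in GATA1 Neg and 20.5 to 52.9 in the clones. Probe A_23_P83328 of ENG (chromosome 9 from 129618138 to 129619292), a co-receptor known from endothelial cells and early blood progenitors, gave log2 ratios of 0.31 and 0.08 in GATA1 5-13 and of 0.06 and -0.25 in GATA1 4-14. Across dye orientations the clones nearly met, at 0.08 for GATA1 5-13 and 0.06 for GATA1 4-14. In the same orientation they had 0.31 and 0.06 (red) and 0.08 and -0.25 (green). A larger gap in this direction was found for 11% of the probes above background. The mean log2 ratio was 0.05 ± 0.20 (SD, n = 2 clones), and limma's adjusted p was 0.92. RefSeq also lists pseudogenes of TGFBR1 and BMPR1A, and whether their RNA reached these probes was not tested.

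Of the members above background, the clones therefore shared a direction on every array only for TGFB3, BMPR2 and 2 probes of BMPR1A. The 3 probes of other genes with log2 ratios nearest to those of TGFB3 over the 4 arrays (Euclidean distance) were IGFBP5 at 0.04, CCDC32 at 0.07 and OGFOD1 at 0.08. In all, 164 of 23803 probes lay within 0.2. Nearest to BMPR2 were C9orf38 at 0.05, EPOR at 0.06 and C1QDC1 at 0.06, with 324 of 23802 probes within 0.2. These are 0.689% and 1.36% of the probes compared.

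The wider pathway was described with 5 lists of 122 further genes (other ligands, other receptors, SMADs and their regulators, extracellular regulators and target genes), each gene by its brightest probe. Of these, 121 were on the array and 66 were above background in the brighter RNA on all arrays. None of the 121 passed an adjusted p of 0.05 in limma, and 9 had an unadjusted p under 0.05, where 7.92% of all genes did. At an unadjusted p of 0.005, 2 genes were higher (BAMBI and SNAI2) and 1 was lower (RGMB), beside 0.393% higher and 0.606% lower over all 27705 genes. Of the 66 genes above background, 14 (21.2%) were higher and 15 (22.7%) were lower on all 4 arrays, against 16.6% and 17.3% of all genes. In opposite directions in the clones went 16 (24.2%), against 18.6%. By list this was 7 of 17 target genes (41.2%), 3 of 12 extracellular regulators, 2 of 9 other ligands, 4 of 23 SMADs and regulators and 0 of 5 other receptors. The 7 target genes (ID1, CDKN1A, CDKN2B, JUNB, KLF11, GADD45B and TSC22D1, named after their values were seen) were all higher in GATA1 5-13 and lower in GATA1 4-14. This order was seen for TGFBR1 and for 9.19% of all genes above background. Sizes differed: clone means were 0.03 and -0.10 for CDKN1A and 0.19 and -0.45 for TSC22D1, beside 0.65 and -0.30 for TGFBR1. ID3 of the same list had clone means of -0.47 and 0.17, in the other order. Whether the target genes followed TGFBR1 was not tested. Over all 66 genes above background the median was 0.03 on the log2 scale for GATA1 5-13 and -0.01 for GATA1 4-14.

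BAMBI, a pseudoreceptor that resembles a type I receptor without a kinase and dampens TGF-beta and BMP signalling, had the largest ratio of the pathway. Its log2 ratios were 2.11 and 2.28 in GATA1 5-13 and 2.38 and 2.49 in GATA1 4-14. All 4 arrays lay at over 2, which is 4.57-fold in GATA1 5-13 and 5.41-fold in GATA1 4-14. The mean log2 ratio was 2.31 ± 0.17 (SD, n = 2 clones), with an unadjusted p of 1.04e-04 and an adjusted p of 0.30 from limma. The normalized log2 intensity was 10.41 to 10.45 in GATA1 Neg and 12.56 to 12.90 in the clones.

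RGMB, a co-receptor for BMPs, was above background in GATA1 Neg and not in either clone. As processed here, the bound on its difference was at least 1.86-fold lower for GATA1 5-13. For GATA1 4-14 it was at least 1.72-fold lower, and limma's adjusted p over the clones was 0.40. Such a bound sets the mean of GATA1 Neg against the clone's own signal on each array. Where that signal was below the lowest one counted as well above background, the latter was used. RGMB's mean log2 ratio was -0.86 as processed here, -1.86 with Feature Extraction's log ratios and -0.31 with no background correction. The bounds therefore hold only for the correction used here. A second RGMB probe on the array did not meet the rule for named genes given below. Both other receptors of the list with a higher signal on all 4 arrays had small ratios, with mean log2 ratios of 0.13 for ACVR2A and 0.27 for ACVR2B, and these were named after their values were seen.

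Among the extracellular regulators LTBP1, which holds latent TGF-beta in the matrix, had log2 ratios of -2.97 and -2.65 in GATA1 5-13 and of -0.76 and -0.47 in GATA1 4-14. It was lower on all 4 arrays, 7.01-fold in one clone and 1.53-fold in the other. The gap between them was wide, with an adjusted p of 0.68 from limma. For LTBP1 the mean log2 ratio of -1.71 was -2.01 with Feature Extraction's log ratios and -1.16 with no background correction. In the target list SNAI2 had 0.69, 0.70, 0.95 and 1.04 and SNAI1 had 0.83, 0.78, 0.41 and 0.39 in the same order of arrays. For SNAI2 the mean log2 ratio of 0.85 was 1.49 with Feature Extraction's log ratios and 0.34 with no background correction. Both genes encode zinc finger repressors that TGF-beta induces in epithelial cells, and their adjusted p-values from limma were 0.52 and 0.60. A second SNAI2 probe on the array did not meet the rule for named genes given below. RUNX3, a Runt-domain transcription factor, had -1.07, -0.97, -0.21 and -0.06, with an adjusted p of 0.70. The study also selected BAMBI, RGMB, LTBP1, SNAI1 and SNAI2 on these arrays, so that their directions are not independent evidence.

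In the list of SMADs and their regulators, 23 of the 24 genes were above background. Of the 8 SMAD genes in it, which encode the proteins that carry the signal to the nucleus or block it, 7 were above background and SMAD6 was not. None of the 24 passed an unadjusted p of 0.005 in limma and 3 were under 0.05, where 7.92% of all genes were. Of the 23, 6 (26.1%) were higher and 4 (17.4%) lower on all 4 arrays, against 16.6% and 17.3% of all genes above background. Opposite directions in the clones were seen for 4 (17.4%), against 18.6%. Like TGFBR1, some other pathway genes were split by clone, and 4 of them are named here after their values were seen. INHBA, a subunit of activin, had 0.68 and 0.79 in GATA1 5-13 and -0.85 and -0.65 in GATA1 4-14. SKIL, a SMAD corepressor, had 0.34, 0.42, -0.48 and -0.51, and the distant ligand GDF15 had 0.23, 0.15, -0.61 and -0.66. SMAD3, which transmits TGF-beta and activin signals, went the other way, with -0.62 and -0.60 in GATA1 5-13 and 0.21 in GATA1 4-14 on both arrays. Whether GATA1 or the separate origin of the clones separated them cannot be told apart with 1 population per clone.

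**Figure D4:**
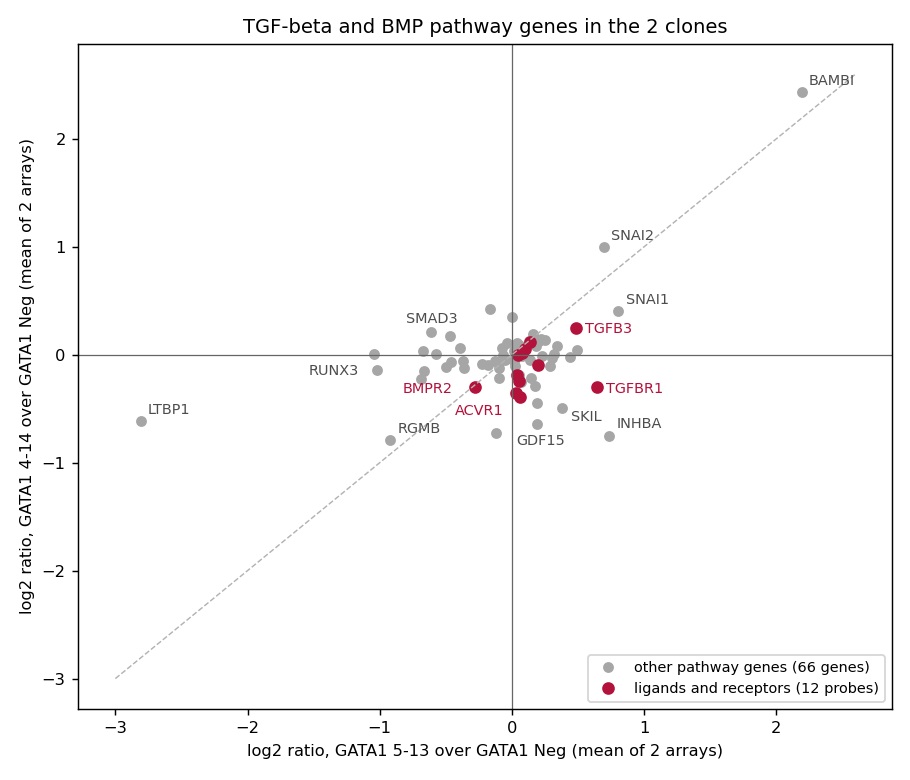
Mean log2 ratio over GATA1 Neg in GATA1 5-13 (horizontal axis) and in GATA1 4-14 (vertical axis), each over 2 arrays, for the 12 ligand and receptor probes above background (red) and the 66 other pathway genes (grey). The dashed line marks equal ratios in both clones. BAMBI lies far from the other genes at the upper right, LTBP1 at the far left, and TGFBR1 falls below the horizontal line at 0.65 and -0.30.

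The cell line label was set against marker genes. Of 11 megakaryocyte markers on the array, 8 were above background in GATA1 Neg on all arrays and 2 in neither RNA on any, and all 10 erythroid markers were above background. Of 10 myeloid, 8 lymphoid and 8 stromal and endothelial markers, 2, 3 and 3 were above background in GATA1 Neg on all arrays. Like TGFBR1, the erythroid list was split by clone, with 5 of its 10 genes in opposite directions (18.6% over all genes above background) and medians of 0.23 for GATA1 5-13 and -0.22 for GATA1 4-14, and its part in the receptor values was not tested. The summed intensity over local background of the erythroid markers was 101696 to 493132 in GATA1 Neg, 187388 to 556309 in GATA1 5-13 and 109697 to 428063 in GATA1 4-14. In GATA1 Neg the sum was 9330.47 to 20781.5 for the megakaryocyte and 28362.2 to 74562.5 for the myeloid markers. It was 1017.61 to 2251.16 for the lymphoid and 6137.46 to 13920.5 for the stromal and endothelial markers. Different probes do not share 1 scale of intensity. The medians of the megakaryocyte list were -0.17 and -0.11. A lower signal in these cultures can come from fewer cells that make an RNA or from less RNA per cell, which cannot be told apart here.

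The calls for TGFB3 and BMPR2 depended on what counted as a replicate. With the 4 arrays taken as 4 values, their adjusted p-values were 0.049 and 0.026 from limma, in a fit that called 3.03% of all probes. With an error-weighted mean of Feature Extraction's log ratios, which takes the error from that program's model of a single array, they were 5.7e-05 and 0.049. By that mean 8.34% of all probes were called, 4.31% lower and 4.02% higher, and of the members TGFB3 was called higher and BMPR2 lower. With the dye orientation as a replicate block they were 0.12 and 0.067, and 0.657% of all probes were called. TGFBR1 kept a log2 ratio of 0.15 to 0.19 wherever both clones were used, and was -0.30 without GATA1 5-13 and 0.65 without GATA1 4-14.

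**Figure D5:**
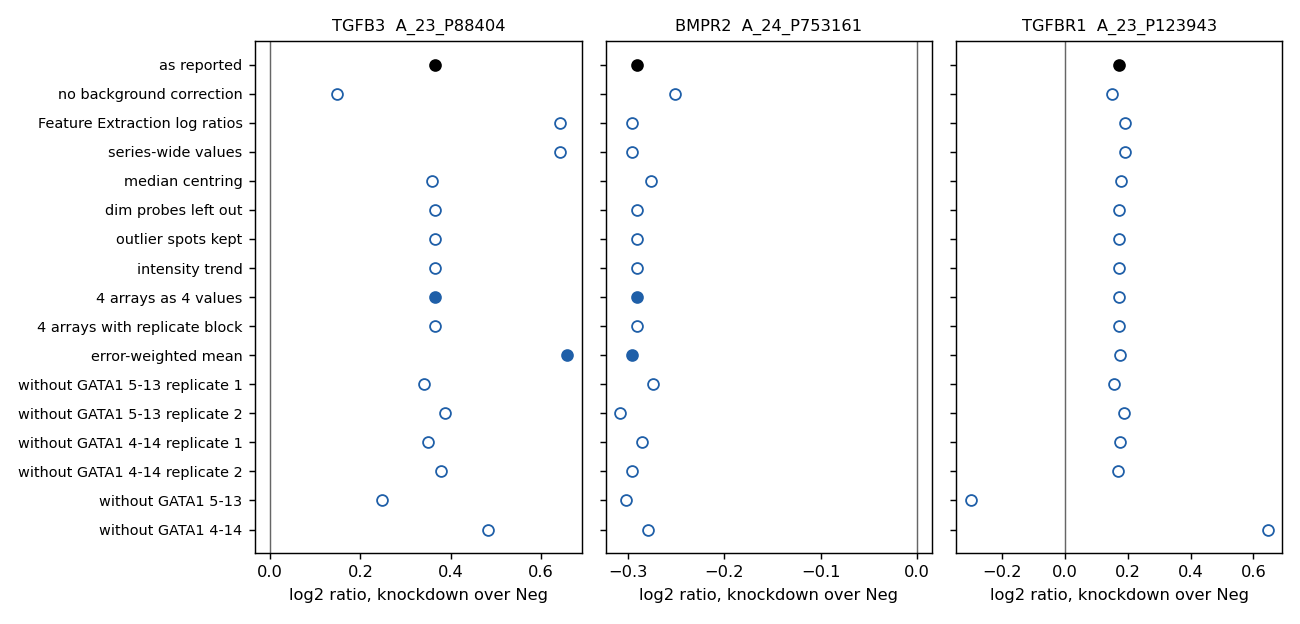
Log2 ratio of knockdown over GATA1 Neg (horizontal axis, each panel with its own range) of the TGFB3, BMPR2 and TGFBR1 probes under each way of processing (rows). Black marks the value as reported, filled blue an adjusted p of at most 0.05 and open circles a larger one or no test. TGFB3 ranges from 0.15 with no background correction to 0.66 with the error-weighted mean, BMPR2 stays near -0.3, and TGFBR1 changes sign with the clone that is left out.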

How the data were processed

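RNA of the Meg-01 clones GATA1 5-13 and GATA1 4-14 was co-hybridized with GATA1 Neg RNA on 4 two-colour Agilent arrays. The authors deposited the scanner output (Feature Extraction 9.5.3.1, probe coordinates on hg18). The deposited mean spot intensities and median local backgrounds are linear and not normalized. The deposited log10 ratio of each spot, with an error from Feature Extraction's model, is of background-subtracted and dye-normalized signals, and the series-wide table the authors deposited holds these log10 values with knockdown over control as their direction (largest difference 4.98e-06). Between 135 and 152 of 43376 spots per array had an outlier mark, 0 were saturated, and 61.6% to 66.4% were well above background. Array number limits the precision.

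Intensities were corrected with normexp (offset 50) and normalized by loess with limma 3.58.1 in R 4.3.3 (data.table version 1.17.8). Control and outlier spots were left out, spots of a probe averaged, all ratios set as knockdown over GATA1 Neg, and each clone's dye-swapped arrays averaged. The mean over 2 clones was tested against 0 by limma's moderated test (two-sided), and p-values were adjusted by Benjamini-Hochberg over 40974 probes. Channel levels are log2 intensities after loess and Aquantile. The test was also run on simulated log2 ratios of 2 clones, and no conclusion is drawn from that run here. The authors' combination by Resolver was not used here.

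Replicate numbers mark the dye orientation: deviations from the clone means correlated at 0.77 across probes between arrays of equal number (with 2 arrays a clone, the value for unequal numbers follows from it). The members, lists and tests were chosen with earlier results of these data known. Named genes were all members, GATA1, and list genes with an unadjusted p of at most 0.005, or with a mean log2 ratio of at least 0.5 in size, 1 sign on all arrays and a signal above background in the brighter RNA. Alternatives were no background correction, Feature Extraction and series-wide values, median centring, dim probes left out, outlier spots kept, an intensity trend, 4 arrays as 4 values, also with a replicate block, an error-weighted mean, and each array and clone left out. Promoter windows and symbols came from RefSeq tables of GRCh38.p14.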

Additional observations from a re-analysis of the deposited data

Results flagged for a closer look

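In all, 3 probes went in opposite directions in the clones, with every array of GATA1 5-13 above GATA1 Neg and every array of GATA1 4-14 below it, and these differences were not tested. The log2 ratio in GATA1 5-13 minus that in GATA1 4-14 was 0.94 for TGFBR1 (A_23_P123943), 0.45 for ACVR1 (A_23_P79221) and 0.30 for TGFBR2 (A_23_P337242). Over all probes above background, 0.718%, 4.50% and 10.4% had a larger difference of this direction. The second TGFBR2 probe, A_23_P211957, had a difference of 0.39 but its GATA1 5-13 arrays lay on both sides of 0.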

How the results depend on the processing

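Of the log2 ratios of the 16 member probes under changed settings, 146 kept their direction and their side of an adjusted p of 0.05, 4 passed it, 3 changed sign and 3 were exactly 0. With each array left out, 58 kept both and 6 changed sign. With a clone left out there is no test, and of 32 values 25 kept their sign and 7 changed it. Among the changed settings, the series-wide values repeat Feature Extraction's log ratios, and keeping outlier spots changed no member's log2 ratio. These settings are counted above but are not separate checks. The number of members past an adjusted p of 0.05 was 0 as reported and 2 (TGFB3 and BMPR2) with the 4 arrays as 4 values or with an error-weighted mean. At an unadjusted p of 0.005 it was 0 as reported, 1 with no background correction, 2 with the 4 arrays as 4 values, 1 with the replicate block, and 2 with the error-weighted mean. In the replicate block fit 0 members passed the adjusted threshold. The pathway list genes past an unadjusted p of 0.005 numbered 3 as reported, 1 with Feature Extraction's log ratios, 1 with the series-wide values, 5 with the 4 arrays as 4 values, 5 with the replicate block and 14 with the error-weighted mean. They numbered 3 to 4 with each array left out. GATA1 passed the adjusted threshold with the 4 arrays as 4 values (log2 ratio -0.39, adjusted p 0.049) and with the error-weighted mean (-0.40, 0.0027).

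Signs changed mainly at values near 0. TGFB2 A_24_P402438 was at 0.00093 with no background correction, 0.00082 with median centring and 0 with Feature Extraction, series-wide and error-weighted values. TGFB3 A_24_P373096 was at -0.0025 with median centring. Without replicate 1 of GATA1 5-13 or of GATA1 4-14, TGFB1 was at -0.011 and -0.012, TGFB2 A_24_P402438 at 0.072 and 0.014, and ENG at -0.0088 and -0.027. With each array left out in turn, TGFB2 A_24_P402438 ranged from -0.11 to 0.072 and ENG from -0.027 to 0.13. Without GATA1 5-13, TGFB1 was at -0.0013, TGFBR1 at -0.30 and ENG at -0.093. Without GATA1 4-14, ACVR1 was at 0.058, TGFBR2 at 0.033 and 0.057 and BMPR2 A_23_P96144 at 0.040. The cause of these shifts was not tested. Dim probes (TGFB2, TGFBR3, the second TGFB3 probe) allow no statement on level.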
